A study of Mus musculus with 4 samples.

Results

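In mouse neuroblastoma cells, a set of cassette exons was less included after Ptbp2 knockdown than in control cells. After knockdown of Ptbp1 and Ptbp2 together, they were less than 10 percentage points below control or not below it. The set holds 404 of the 99604 measured cassette exons, that is, middle exons for which both inclusion and skipping were scored. They were chosen by their values: junction inclusion was at least 10 percentage points below control in the Ptbp2 knockdown, and less than 10 points below control in the double knockdown. Inclusion is x/(x + y), where x is the average number of reads on the upstream and downstream inclusion junctions and y the number on the skipping junction. An exon was measured when it was over 27 nucleotides long and x + y came to 20 or more in each library. Inclusion in the Ptbp2 knockdown, double knockdown and control is therefore given as a description. Inclusion in the Ptbp1 knockdown was not used in the choice, although the read minimum applied to that library too. Reading frame, exon sequence and host gene level were not used, nor exon length beyond the minimum. Over all measured exons, median inclusion was 100% in every library, with a lower quartile of 99.7% to 99.9%. Shares over all measured exons given below thus come mostly from exons near full inclusion, to which the members were not matched.

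The cells were N2A, a mouse neuroblastoma line. They carried an shRNA against Ptbp2 (Ptbp2 knockdown), shRNAs against both Ptbp1 and Ptbp2 (double knockdown), an shRNA against Ptbp1 (Ptbp1 knockdown) or a control shRNA (control). All 4 groups shared a lipid transfection of 5 h and a culture of 3 days, and their RNA was sequenced as strand-specific 100-base paired reads. Each group held 1 library, and the knockdowns were transient transfections of 1 cell line, so replicate variation is unknown and no test was run. Intervals are 95% Wilson intervals from junction reads and cover counting error only.

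Polypyrimidine tract-binding proteins bind C- and U-rich RNA and are best known for keeping alternative exons out of the mRNA, although they can also favour inclusion of others. Ptbp1 is made in most cells, while Ptbp2 is made mainly in neurons, where it takes over as Ptbp1 declines during differentiation. The proteins are also linked to each other: Ptbp1 promotes skipping of a Ptbp2 exon, and the skipped mRNA is degraded.

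Exon reads of Ptbp2 stood at 17.98 per M reads in the Ptbp2 knockdown, 33.1 in the double knockdown, 156 in the Ptbp1 knockdown and 75.3 in control. Ptbp1 stood at 684 per M reads in the Ptbp2 knockdown, 136 in the double knockdown, 172 in the Ptbp1 knockdown and 596 in control. Ptbp2 was thus at 23.9% of control in the Ptbp2 knockdown and at 44.0% in the double knockdown. The part of this difference in the results below was not tested. Ptbp3, the third member of the family, was between 28.3 and 31.9 per M reads in the knockdowns, against 55.7 in control. Neuronal or neuroblast markers reached 1 read per M for 6 of 11 genes in control. Markers of astrocytes, microglia and fibroblasts did so for 0 of 8 genes with exons on the list. Reads on distinct junctions numbered 58.73 to 74.89 M per library, fewest in the Ptbp1 knockdown.

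The exons below are among those with the largest differences, and their sequences are shown so that their size and pyrimidine stretches can be seen. Capitals mark pyrimidine motifs of the kind that these proteins bind. Searched on the transcript strand only, they were the 4-base motif TCTT, then a repeat of CT written CTCTCT, and lastly a variant starting with T, which is TTCTCT. Matches may overlap. The sequences are those of GENCODE vM21 transcripts on GRCm38, 5′ to 3′.
Mdm1: ggTTCTCTaaatgccatgtggtatgcagag
Arhgef12: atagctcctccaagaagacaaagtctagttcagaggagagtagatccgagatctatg
Golga2: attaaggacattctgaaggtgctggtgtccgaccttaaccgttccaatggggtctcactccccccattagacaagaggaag
Scamp5: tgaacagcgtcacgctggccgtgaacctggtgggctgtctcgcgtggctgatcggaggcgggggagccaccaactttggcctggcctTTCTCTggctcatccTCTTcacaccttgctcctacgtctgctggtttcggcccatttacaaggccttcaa
Gabbr1: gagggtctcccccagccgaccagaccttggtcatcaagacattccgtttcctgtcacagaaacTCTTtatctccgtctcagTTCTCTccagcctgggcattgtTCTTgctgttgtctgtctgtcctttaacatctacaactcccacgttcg
Clip2: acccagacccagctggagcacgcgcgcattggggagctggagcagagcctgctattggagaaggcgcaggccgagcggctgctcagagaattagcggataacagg
Dlg4: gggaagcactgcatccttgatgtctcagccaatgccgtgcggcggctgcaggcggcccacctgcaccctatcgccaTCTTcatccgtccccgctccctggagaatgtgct
Clta: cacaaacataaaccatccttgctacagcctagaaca
Cert1: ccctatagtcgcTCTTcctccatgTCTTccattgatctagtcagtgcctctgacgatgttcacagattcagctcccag

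In GRCm38 the Mdm1 exon lies at chr10:118156834-118156863 and the Golga2 exon at chr2:32293315-32293395, both on the + strand. The Arhgef12 exon lies at chr9:43040540-43040596 and the Scamp5 exon at chr9:57447077-57447233, both on the − strand. Gabbr1 (chr17:37067214-37067364), Dlg4 (chr11:70043658-70043767), Clta (chr4:44031400-44031435) and Cert1 (chr13:96616994-96617071) are on the + strand, and Clip2 (chr5:134504734-134504838) is on the − strand. The Cert1 exon was the richest in pyrimidines of those shown, at 65.4% of its bases, with 2 TCTT matches. The Gabbr1 exon had 64.9% and 2 TCTT matches. The Clip2 exon, whose inclusion spanned a wider range over the 4 libraries than that of either, had 38.1% and no match. All coordinates given below are on mm9, the build of the deposited tables, and the exons described lie in coding sequence of at least 1 transcript unless stated.

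In all, 653 exons were at least 10 points below control in the Ptbp2 knockdown, 0.656% of those measured. The 404 members are 61.9% of them. The other 249 were also at least 10 points below control in the double knockdown, as were 0.811% of all measured exons, and are called the exons lower in both. Median inclusion of the members was 68.7% in the Ptbp2 knockdown, 85.3% in the double knockdown, 85.7% in the Ptbp1 knockdown and 84.5% in control. Not all members returned to control: 222 were still below it in the double knockdown, by less than 10 points. For 128 members the double knockdown was less than 10 points above the Ptbp2 knockdown. For the exons lower in both, the medians were 61.4% in the Ptbp2 knockdown, 58.0% in the double knockdown, 72.1% in the Ptbp1 knockdown and 78.9% in control. The same rule turned upward, at least 10 points above control in the Ptbp2 knockdown and less than 10 above in the double knockdown, held for 131 exons, and 0.232% of exons were that far above control in the Ptbp2 knockdown.

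**Figure D1:**
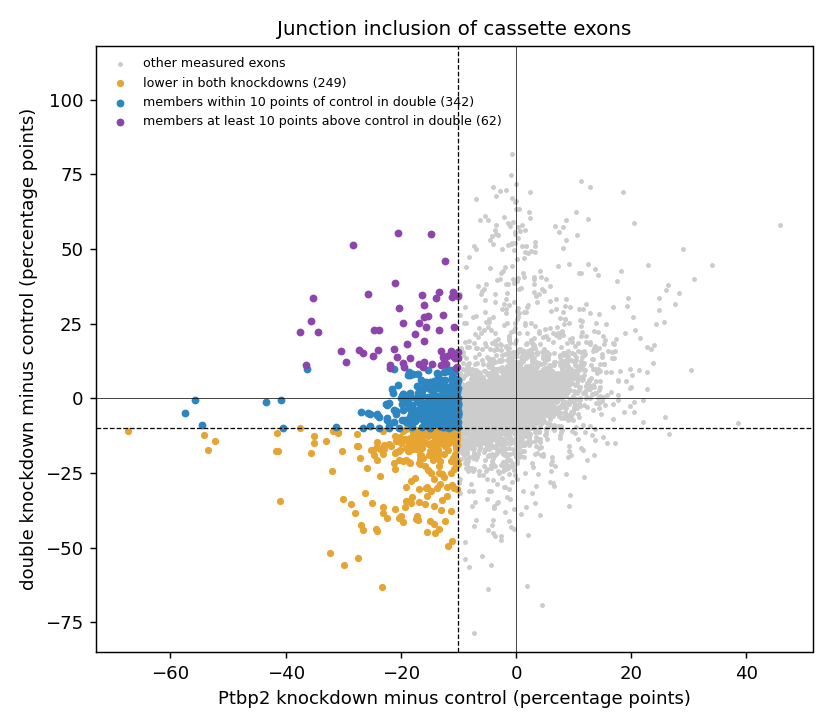
Each point is a cassette exon, placed by its inclusion in the Ptbp2 knockdown minus control (x axis) and in the double knockdown minus control (y axis), in percentage points. The dashed lines are the limits of the rule, and the members split into 62 exons at least 10 points above control in the double knockdown and 342 exons within 10 points of it.

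Most members changed moderately. The median drop in the Ptbp2 knockdown was 13.4 points, 56 members fell by at least 20 points and 14 by at least 30. For 187 members (46.3%) the intervals in the Ptbp2 knockdown and in control did not overlap, which held for 1.07% of all measured exons in this direction. The choice required a drop between these same libraries, so nothing is read from this contrast. Both inclusion junctions taken singly fell by at least 10 points for 232 members, and 8 members had no read on 1 of the inclusion junctions in any library. Exons described below whose difference on 1 junction fell short of 10 points include Mapt (−3.19 on that junction), Enah (−4.64 in the 843-nucleotide form), Madd (−5.37 in the 63-nucleotide exon), Ankrd12 (−6.35), Epb41l3 (−6.38 in the 123-nucleotide exon), Grip1 (−6.61) and Tpm1 (−9.86). Median depth was 89.25 junction reads in the Ptbp2 knockdown, 104.0 in the double knockdown, 94.0 in the Ptbp1 knockdown and 102.25 in control, and single values ranged from 20 to 3026.5. Members with few reads are the least certain: of the 257 with at least 50 reads in every library, 176 had intervals apart.

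The limits of the rule fall within a continuous range of values. Srrm2, just inside the first limit, stood at 76.9% in the Ptbp2 knockdown and 86.9% in control, a difference of −10.01 points. Pdcd2l, just outside, stood at 83.3% in the Ptbp2 knockdown and 93.2% in control, a difference of −9.96. Itpka and an unnamed exon on chromosome 17 also met the first limit, by less than Srrm2, and Snph and Il13ra1 lay just outside, at −9.99 and −9.96. At the limit for the double knockdown, Mapt, Shbg and Etv4 lay just inside, with differences from control of −9.96, −9.95 and −9.82. Tmem14c, Lrrfip2 and Stk25 lay just outside, at or below −10 points, with −10.02 in Lrrfip2 and −10.03 in Stk25.

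The members lie in 357 named genes, with 13 members unnamed. In 30 genes there was more than 1 member, and Agtpbp1, Nfya, Camta2 and Celf4 had 3 each. Some members are alternative boundaries of 1 exon. With members that share an exon edge joined, they form 382 groups, in which neighbouring exons were not joined. The members in 9030025P20Rik, Ermard and Gm3435 had identical reads and are near-identical copies, so their values are uncertain.

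Adhesion and cytoskeleton genes held the first examples of a large drop in the Ptbp2 knockdown with a double knockdown near control. The 130-nucleotide exon of Itga6 (chr2:71691591-71691720, + strand), partly coding, belongs to the integrin alpha 6 subunit, a laminin receptor. Its inclusion was 28.7% in the Ptbp2 knockdown (interval 25.3 to 32.5), 81.3% in the double knockdown, 91.7% in the Ptbp1 knockdown and 86.2% in control (83.6 to 88.4). Only the Ptbp2 knockdown was low, by 57.5 points, the largest drop of any member. The 30-nucleotide exon of Mdm1 (chr10:117593890-117593919, + strand), which encodes a microtubule-binding protein of centrioles, was the most deeply covered of these, with 1054 or more reads in each library. Its inclusion was 20.6% in the Ptbp2 knockdown (18.6 to 22.8), 62.9% in the double knockdown, 88.9% in the Ptbp1 knockdown and 64.0% in control (61.4 to 66.5). Here the double knockdown stood beside control, 1.1 points below it, while the Ptbp1 knockdown was 24.9 points above it.

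Among regulators of small GTPases, Arhgef12, an exchange factor that activates small GTPases, had a 57-nucleotide exon (chr9:42848623-42848679, − strand) at 26.8% in the Ptbp2 knockdown, 72.3% in the double knockdown, 86.9% in the Ptbp1 knockdown and 81.3% in control. The Ptbp2 knockdown lay apart from the other 3 libraries, whose intervals overlapped. Madd, which activates Rab3 GTPases, had a 63-nucleotide exon at 46.0% in the Ptbp2 knockdown, 90.3% in the double knockdown, 77.7% in the Ptbp1 knockdown and 56.0% in control, with overlapping intervals in the Ptbp2 knockdown and control. A further Madd exon, of 60 nucleotides, stood at 40.8% in the Ptbp2 knockdown, 53.7% in the double knockdown, 45.9% in the Ptbp1 knockdown and 54.8% in control. The exons of this gene thus differed in the Ptbp1 knockdown, where the first was 21.7 points above control and the second fell by 8.9 points.

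In membrane traffic, Golga2 encodes GM130, a matrix protein of the cis-Golgi. Its 81-nucleotide exon (chr2:32148835-32148915, + strand) was at 15.9% in the Ptbp2 knockdown (11.9 to 20.7), 75.6% in the double knockdown, 82.0% in the Ptbp1 knockdown and 53.4% in control (46.6 to 59.8). Scamp5, a secretory carrier protein of synaptic vesicles, had a 157-nucleotide exon (chr9:57294884-57295040, − strand) at 22.3% in the Ptbp2 knockdown, 83.8% in the double knockdown, 90.3% in the Ptbp1 knockdown and 57.8% in control. Clta, a light chain of clathrin, had a 36-nucleotide exon (chr4:44044272-44044307, + strand) at 11.4% in the Ptbp2 knockdown, 62.3% in the double knockdown, 67.0% in the Ptbp1 knockdown and 27.7% in control. In all 3 genes the order was the same: the Ptbp2 knockdown lowest, control next, and both libraries with the Ptbp1 shRNA highest. Exoc7, a subunit of the exocyst that tethers secretory vesicles, had 2 members with that control position. Its 93-nucleotide exon was at 29.4% in the Ptbp2 knockdown, 90.1% in the double knockdown, 83.5% in the Ptbp1 knockdown and 55.1% in control, and its 39-nucleotide exon at 36.9%, 87.4%, 85.2% and 57.1% in the same libraries.

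**Figure D2:**
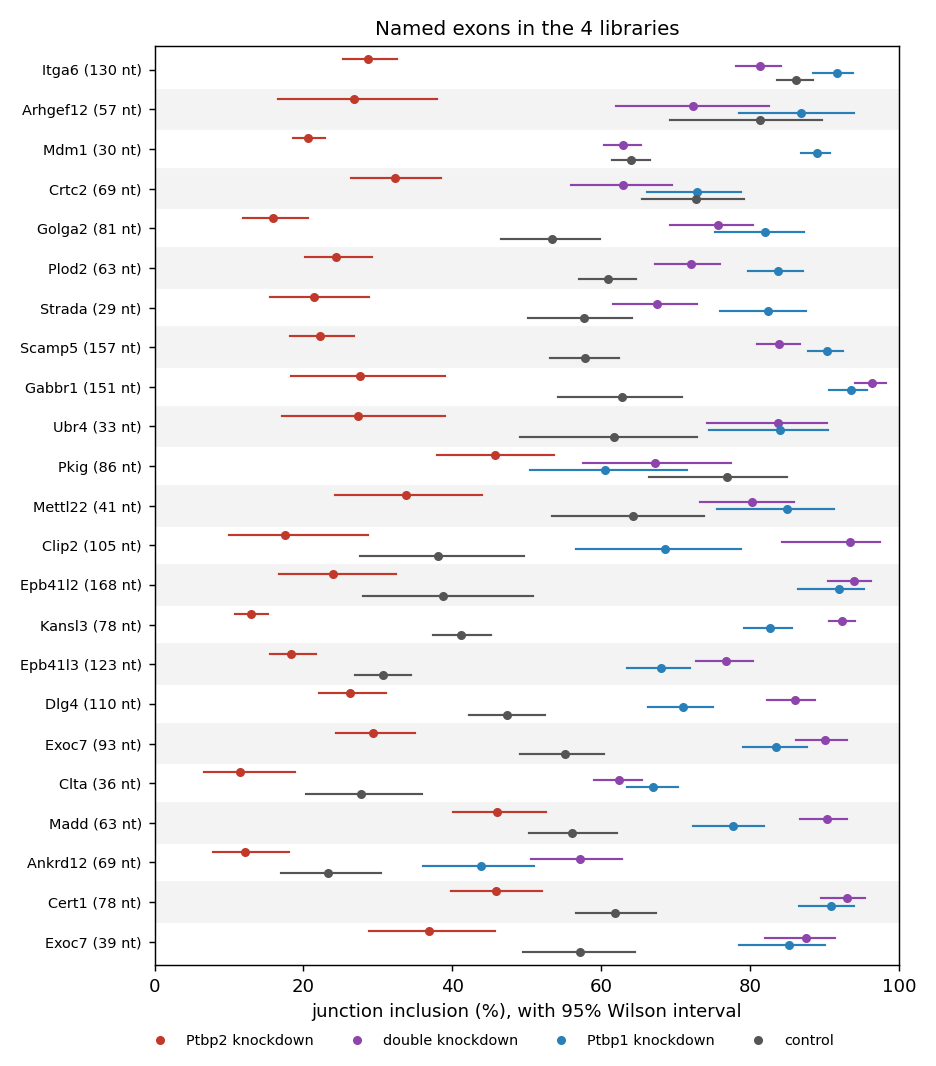
Junction inclusion (x axis, %) of 23 named exons in each of the 4 libraries, with 95% Wilson intervals from junction reads as lines. From Itga6 down to Mettl22 are the 12 largest drops in the Ptbp2 knockdown, and the others are those with the largest excess of the double knockdown over control, where Gabbr1 also ranks. In every row the Ptbp2 knockdown is leftmost, and control lies left of both libraries with the Ptbp1 shRNA except for Itga6, Arhgef12, Mdm1, Crtc2 and Pkig, where it lies right of the double knockdown.

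Receptors and postsynaptic proteins held members with the same order of libraries. Gabbr1 encodes a subunit of the metabotropic GABA-B receptor. Its 151-nucleotide exon (chr17:37204159-37204309, + strand) was at 27.5% in the Ptbp2 knockdown (18.4 to 39.0), 96.4% in the double knockdown, 93.6% in the Ptbp1 knockdown and 62.8% in control (54.1 to 70.9). Dlg4 encodes PSD-95, the main scaffold of excitatory synapses. Its 110-nucleotide exon (chr11:69857160-69857269, + strand) was at 26.3% in the Ptbp2 knockdown (22.0 to 31.0), 86.0% in the double knockdown, 70.9% in the Ptbp1 knockdown and 47.3% in control (42.2 to 52.4). For Dlg4 all 4 intervals were apart, with the double knockdown 15.1 points above the Ptbp1 knockdown. Grip1, a scaffold of AMPA receptors, had a 45-nucleotide exon at 5.1% in the Ptbp2 knockdown, 26.3% in the double knockdown, 45.7% in the Ptbp1 knockdown and 20.7% in control.

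Among members with at least 50 reads in every library, the excess of the double knockdown over control was largest in a microtubule gene, Clip2, and a membrane-skeleton gene, Epb41l2. Clip2, a protein of microtubule plus ends, had a 105-nucleotide exon (chr5:134980604-134980708, − strand) at 17.5% in the Ptbp2 knockdown, 93.4% in the double knockdown, 68.5% in the Ptbp1 knockdown and 38.0% in control. The double knockdown was 55.4 points above control, from 61.0 to 71.0 reads per library, and the intervals in the Ptbp2 knockdown (10.0 to 28.6) and in control (27.6 to 49.7) overlapped. Epb41l2, a protein 4.1 relative that links spectrin and actin to the membrane, had a 168-nucleotide exon annotated only in a noncoding transcript, at 24.0% in the Ptbp2 knockdown, 94.0% in the double knockdown, 91.9% in the Ptbp1 knockdown and 38.8% in control. Its intervals in the Ptbp2 knockdown (16.7 to 32.4) and in control (28.0 to 50.8) overlapped. The related Epb41l3 had 2 members that went different ways in the double knockdown. Its 123-nucleotide exon was at 18.4% in the Ptbp2 knockdown, 76.8% in the double knockdown, 68.0% in the Ptbp1 knockdown and 30.7% in control, and its partly coding 117-nucleotide exon at 42.6%, 56.6%, 75.2% and 66.4% in the same libraries. Mapt, the microtubule-binding protein tau, had an 87-nucleotide exon at 7.9% in the Ptbp2 knockdown, 18.2% in the double knockdown, 49.2% in the Ptbp1 knockdown and 28.1% in control, so that it lay just inside the second limit. Clasp1, which stabilises microtubules, had a 63-nucleotide exon at 4.8% in the Ptbp2 knockdown, 32.0% in the double knockdown, 39.8% in the Ptbp1 knockdown and 16.1% in control.

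Members in actin-linked genes included Enah, which lengthens actin filaments. Its 843-nucleotide and 111-nucleotide forms share 1 edge on chromosome 1 and thus reads on 1 junction. The 843-nucleotide form was at 59.5% in the Ptbp2 knockdown, 95.9% in the double knockdown, 85.3% in the Ptbp1 knockdown and 72.9% in control. Cttn, which encodes cortactin of branched actin networks, had a 111-nucleotide exon at 45.3% in the Ptbp2 knockdown, 66.8% in the double knockdown, 79.8% in the Ptbp1 knockdown and 57.8% in control. Ctnna2, the neuronal alpha-catenin, had a 144-nucleotide exon at 51.7% in the Ptbp2 knockdown, 92.3% in the double knockdown, 86.1% in the Ptbp1 knockdown and 64.3% in control, with overlapping intervals in the Ptbp2 knockdown and control.

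Members also lay in nuclear and signalling genes. Kansl3, a subunit of the NSL histone acetyltransferase complex, had a 78-nucleotide exon, coding in some transcripts and untranslated in others, with 546 or more reads per library. It was at 12.9% in the Ptbp2 knockdown (10.8 to 15.2), 92.4% in the double knockdown, 82.6% in the Ptbp1 knockdown and 41.1% in control (37.4 to 45.2). Crtc2, a coactivator of CREB, differed from this: its 69-nucleotide exon was at 32.3% in the Ptbp2 knockdown, 63.0% in the double knockdown, 72.9% in the Ptbp1 knockdown and 72.8% in control. Strada, a pseudokinase that activates the kinase Stk11, had a 29-nucleotide exon at 21.4% in the Ptbp2 knockdown, 67.5% in the double knockdown, 82.4% in the Ptbp1 knockdown and 57.7% in control. No read fell on 1 of its inclusion junctions in any library, so these values rest on the other junction and are lowered by the average with 0. Tsc2, an inhibitor of mTOR complex 1, had a 129-nucleotide exon at 65.0% in the Ptbp2 knockdown, 96.5% in the double knockdown, 95.01% in the Ptbp1 knockdown and 84.7% in control. For Nfya, a subunit of the CCAAT-binding factor NF-Y, the 3 members of 81, 84 and 87 nucleotides are alternative boundaries of 1 exon and were lowered by 21.2 to 24.8 points. Lef1, a transcription factor of the Wnt pathway, stood at 26.3% in the Ptbp2 knockdown and 82.0% in control, the second-largest drop among the members, but from 38.0 and 44.5 reads.

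The remaining named exons lay in genes of varied function. Plod2, a lysyl hydroxylase of collagen, had a 63-nucleotide exon at 24.4% in the Ptbp2 knockdown, 72.0% in the double knockdown, 83.7% in the Ptbp1 knockdown and 60.9% in control. Cert1, which carries ceramide between membranes, had a 78-nucleotide exon at 45.8% in the Ptbp2 knockdown, 93.0% in the double knockdown, 90.8% in the Ptbp1 knockdown and 61.8% in control. Ubr4, a ubiquitin ligase, had a 33-nucleotide exon at 27.3% in the Ptbp2 knockdown, 83.8% in the double knockdown, 84.0% in the Ptbp1 knockdown and 61.7% in control. It too had no reads on 1 of its inclusion junctions in any library. Its assembled isoform share was 41.7% in the double knockdown and 0 in the Ptbp2 knockdown, the Ptbp1 knockdown and control. By junction inclusion, both libraries with the Ptbp1 shRNA were highest in these 3 genes too. The same held for the 41-nucleotide exon of Mettl22, a methyltransferase, at 33.7% in the Ptbp2 knockdown, 80.2% in the double knockdown, 85.0% in the Ptbp1 knockdown and 64.2% in control. It also held for the 69-nucleotide exon of Ankrd12, an ankyrin repeat protein, at 12.1% in the Ptbp2 knockdown, 57.1% in the double knockdown, 43.8% in the Ptbp1 knockdown and 23.2% in control, although its intervals in the Ptbp2 knockdown and control overlapped. The untranslated 86-nucleotide exon of Pkig, an inhibitor of protein kinase A, was an exception, at 45.7% in the Ptbp2 knockdown, 67.3% in the double knockdown, 60.5% in the Ptbp1 knockdown and 76.9% in control, where it was highest.

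Ptbp2 itself held a member. Its 34-nucleotide exon (chr3:119427530-119427563, − strand), whose skipping shifts the reading frame, was at 42.7% in the Ptbp2 knockdown (32.9 to 53.1), 84.5% in the double knockdown, 94.5% in the Ptbp1 knockdown and 72.2% in control (67.0 to 76.9). The Ptbp2 knockdown was lowest and the Ptbp1 knockdown highest. Ptbp2 mRNA was the target of the shRNA, so inclusion in both libraries that carried it was measured on the RNA that remained.

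Inclusion in the Ptbp1 knockdown, which the choice did not use, was close to control for most members. It was at least 10 points above control for 66 members (16.3%, against 0.474% of all measured exons). It was at least 10 points below control for 29 (7.18%, against 0.499%) and within 10 points for 309, with a median difference of −0.01 points. Both comparisons share the control library, so a control value that is high by counting error lowers the difference in each. Most of all measured exons were near 100% in control, where a rise of 10 points is not possible. Among the exons lower in both, the Ptbp1 knockdown was at least 10 points above control for 13 and at least 10 points below it for 102, with a median difference of −7.66 points. Larger drops differed in this: of the 56 members that fell by at least 20 points in the Ptbp2 knockdown, 21 (37.5%) were at least 10 points above control in the Ptbp1 knockdown, and the median difference was 5.82 points.

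Of the 66 members above control in the Ptbp1 knockdown, 46 lay among the 62 members at least 10 points above control in the double knockdown (15.3% of members; 0.573% of all measured exons were that far above). Of these 62, the Ptbp1 knockdown was at least 10 points above control for 46 (74.2%), at least 10 points below for 0 and within 10 points for 16. Of all 571 measured exons that far above control in the double knockdown, it was so for 342 (59.9%), and both comparisons share the control library. Median inclusion of the 62 was 39.7% in the Ptbp2 knockdown, 83.8% in the double knockdown, 82.2% in the Ptbp1 knockdown and 60.5% in control. Of the other 342 members, 20 were at least 10 points above control in the Ptbp1 knockdown, 29 at least 10 points below and 293 within. Their medians were 73.4% in the Ptbp2 knockdown, 85.5% in the double knockdown, 87.2% in the Ptbp1 knockdown and 87.9% in control. The lower control median of the 62 follows in part from the scale: none of the 154 members at 90% or more in control could rise by 10 points beyond 100%, so the 62 and the 66 both come from the 250 members under 90% in control. Restricted to members with intervals apart, 27 of the 32 exons above control in the double knockdown were at least 10 points above control in the Ptbp1 knockdown.

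**Figure D3:**
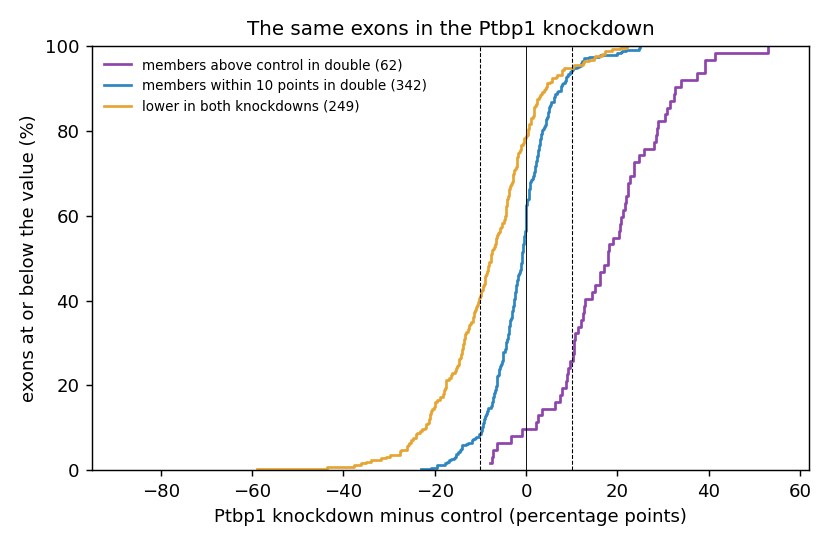
Cumulative share of exons (y axis, %) by inclusion in the Ptbp1 knockdown minus control (x axis, percentage points), for the 62 members above control in the double knockdown, the other 342 members and the 249 exons lower in both knockdowns. Dashed lines mark 10 points either way: the first curve lies mostly to the right of 10, the second around 0 and the third mostly to the left of 0.

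By library, inclusion was lowest in the Ptbp2 knockdown for 395 members and in the Ptbp1 knockdown for 9. By the choice, neither control nor the double knockdown could be lowest, so only the Ptbp1 knockdown was free to be. Inclusion was highest in the double knockdown for 106, in the Ptbp1 knockdown for 122 and in control for 156, and 20 members had a tie for the highest. Control inclusion was under 50% for 64 members, between 50% and 90% for 186 and at least 90% for 154.

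The Ptbp2 shRNA was also compared where Ptbp1 was depleted, as the double knockdown minus the Ptbp1 knockdown. The rule bounded the double knockdown from below for members and from above for the exons lower in both, so this difference is a description too. Its median over members was −0.31 points, against −13.4 for the Ptbp2 knockdown minus control. It was at least 10 points downward for 26 members (6.44%, against 0.491% of all measured exons), at least 10 points upward for 43 (10.6%, against 0.425%) and smaller than that for 335. It was smaller in size than the drop without the Ptbp1 shRNA for 375 of the 404 members. The 335 are among these by the choice, since every member was chosen for a drop of at least 10 points. Nothing is read from this count. Over the members with intervals apart the median was −1.15 points, against −14.7 without the Ptbp1 shRNA. For the exons lower in both, the median was −11.2 points and 142 were at least 10 points downward.

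**Figure D4:**
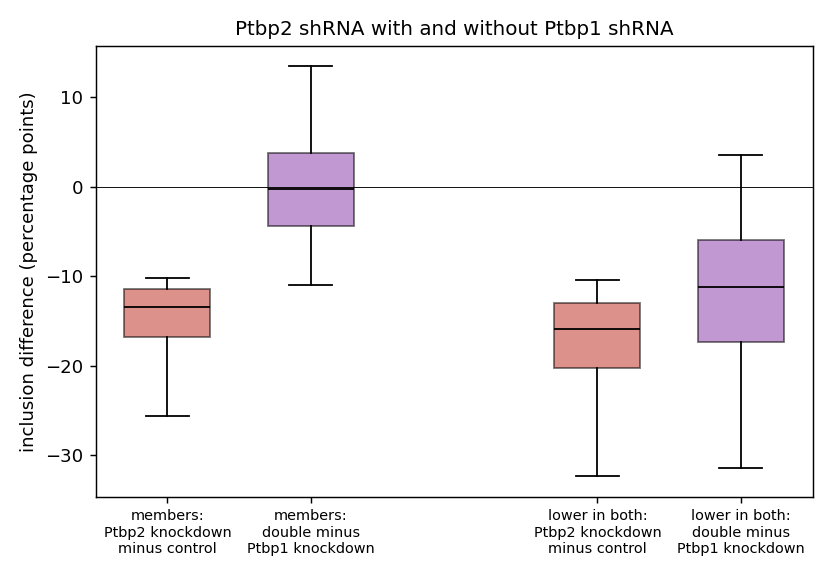
Inclusion difference (y axis, percentage points) with the Ptbp2 shRNA alone (Ptbp2 knockdown minus control) and with the Ptbp1 shRNA present (double minus Ptbp1 knockdown), for the 404 members and the 249 exons lower in both. Both sets were chosen for a drop of at least 10 points in the Ptbp2 knockdown minus control. Boxes span the quartiles with the median as a line and whiskers reach the 5th and 95th percentiles; for members the median is −13.4 in the first box and −0.31 in the second.

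Single exons departed from that median both ways. Mapt was 31.0 points lower in the double than in the Ptbp1 knockdown, against 20.3 points lower in the Ptbp2 knockdown than in control. Mdm1 was 26.0 points lower in the double than in the Ptbp1 knockdown, against 43.3 without the Ptbp1 shRNA. Strada was lower by 14.9 points, against 36.3, and Arhgef12 by 14.6, against 54.5, and the Arhgef12 intervals in the double and Ptbp1 knockdowns overlapped. In these genes the double knockdown was within 10 points of control while the Ptbp1 knockdown was above control, by 21.1 points in Mapt, 24.9 in Mdm1, 24.7 in Strada and 5.6 in Arhgef12. Gabbr1, Ubr4 and Cert1 were within 3 points of the Ptbp1 knockdown. Clip2 and Dlg4 went the other way, 24.9 and 15.1 points higher in the double than in the Ptbp1 knockdown.

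A second readout, coverage of the exon body over that of its flanking exons, was lower in the Ptbp2 knockdown than in control for 379 of the 404 members (93.8%, against 52.4% of all measured exons). The median log2 difference from control was −0.30 in the Ptbp2 knockdown, −0.02 in the double knockdown and 0.01 in the Ptbp1 knockdown. Isoforms assembled in each library by the authors held both forms of 247 members. The isoform share that included the exon had a median of 72.6% in the Ptbp2 knockdown, 88.3% in the double knockdown, 87.2% in the Ptbp1 knockdown and 83.7% in control, and was lower in the Ptbp2 knockdown than in control for 174 of them (70.4%, against 38.8% of the 5180 measured exons with both forms). Exons described above with a higher isoform share in the Ptbp2 knockdown than in control included Dlg4 (73.1% against 68.6%) and Pkig (38.0% against 28.9%). Both Epb41l3 members were higher too, at 84.0% and 85.7% against 77.7%. In Gabbr1 the isoform share was 91.8% against 100%, where junction inclusion was 27.5% against 62.8%. Others were lower, among them Itga6 (56.4% against 100%) and Golga2 (20.3% against 63.6%). The coverage and isoform measures come from the same libraries as the junction reads, so they show how the readouts compare and not a repeat.

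Exon length and frame differed between the 62 members above control in the double knockdown and the other 342, with no test run. The groups also differed in control inclusion, with medians of 60.5% and 87.9%, and were not matched on it. Exons whose length is a multiple of 3, which can be skipped without shifting the reading frame, made up 184 of the 404 members (45.5%, interval 40.8 to 50.4), 45.4% of the exons lower in both and 38.8% of all measured exons. Among the 62 the share was 64.5% (52.1 to 75.3), and among the other 342 it was 42.1% (37.0 to 47.4). Of the 62, 43 were classed as coding, that is, fully coding in at least 1 transcript and otherwise found only in noncoding transcripts. Of these, 34 (79.1%) kept the frame, against 46.9% of the other coding members, 52.0% of all coding members and 39.3% of all coding measured exons. Members had a median length of 105 nucleotides, the 62 had 87 and all measured exons had 123. Exons under 60 nucleotides made up 13.9% of members, 22.6% of the 62 and 6.51% of all measured exons. Coding exons made up 69.5% of the 387 members placed in the annotation, against 80.1% of all placed exons, and 46 members (11.9% of those placed, against 2.63% of all placed exons) lay in untranslated or noncoding sequence.

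The exon sequences, of which 9 are printed above, differed in base composition between the same groups. Pyrimidines made up 55.5% of the bases of the 57 placed members above control in the double knockdown, 50.02% in the 330 other placed members, 47.7% in the 236 placed exons lower in both and 47.3% in all 96985 placed exons. TCTT occurred 7.17 times per 1000 bases in the first group, 4.68 times in the second, 2.97 times in the exons lower in both and 4.13 times in all. CTCTCT was present in 12.3% of the first group, 6.36% of the second, 1.70% of the exons lower in both and 4.67% of all exons. TTCTCT was present in 10.5% of the first group, 5.76% of the second, 5.51% of the exons lower in both and 4.85% of all exons. The share of exons with any TCTT differed less, at 43.9% in the first group, 31.4% in the exons lower in both and 39.8% in all. Motifs of other splicing factors were counted as well: TGCT, of the MBNL type, occurred 9.12 times per 1000 bases in the first group, 7.49 in the second, and 7.07 in the exons lower in both, with a lower density over all placed exons. GCATG, of the Rbfox type, was present in 5.26% of the first group, 11.5% of the second, 13.6% of the exons lower in both and 12.6% of all. Density was thus highest in the first group for TGCT too, and not only for pyrimidine motifs. The share of exons with any TGCT, however, was 50.9% in the first group and 50.9% in all placed exons. Densities were pooled over the bases of a group, so long exons weigh more. Only exon sequence was searched, the groups were not matched on length, base composition or control inclusion, and a match is no sign of binding.

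**Figure D5:**
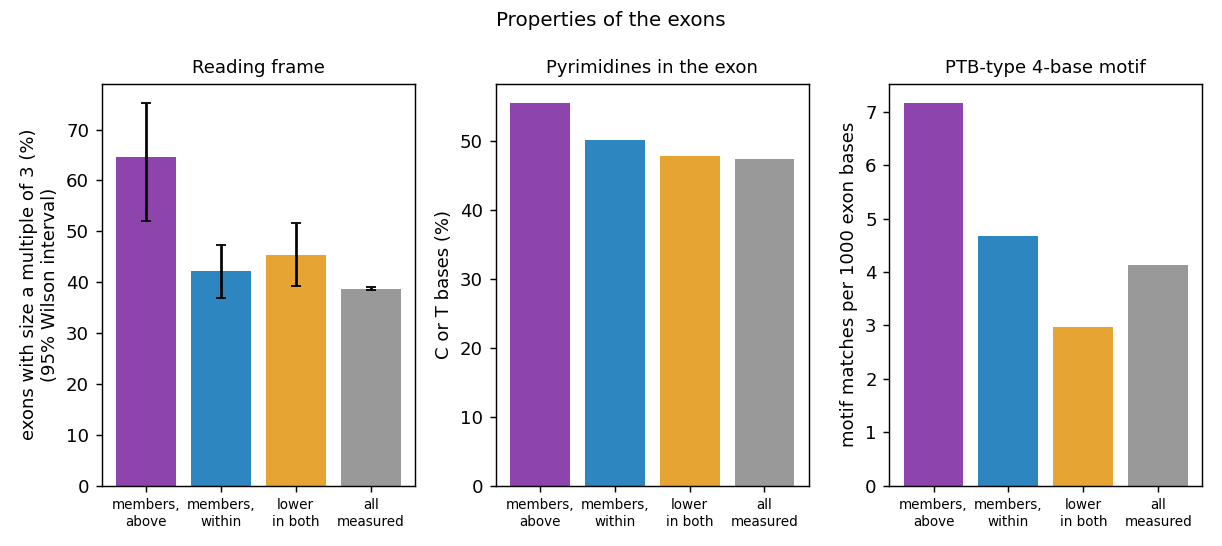
Share of exons whose length is a multiple of 3 (left, %, with 95% Wilson interval), share of C or T among exon bases (middle, %) and matches of the 4-base motif per 1000 exon bases (right), for members above control in the double knockdown, members within 10 points of control there, exons lower in both knockdowns and all measured exons. The first group is highest in all 3 panels, at 64.5%, 55.5% and 7.17.

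Host gene levels moved little. Over the 356 host genes with at least 1 read per M, the median log2 difference in exon reads was −0.05 in the Ptbp2 knockdown against control, with 9 genes at least 2-fold lower and 1 at least 2-fold higher. Of all genes, 2.17% were 2-fold lower and 0.819% 2-fold higher. The 9 lower genes were Ptbp2 itself, Clock, Ankrd6, Adcyap1r1, Spopl, Itpka, Map3k2, Ndrg2 and Ttll7, and the higher one was Tmem39a. These were named after their values were seen. Where a member above control in the double knockdown is coding and shifts the frame, host levels were higher with the Ptbp1 shRNA: over 8 such genes the median log2 difference from control was −0.02 in the Ptbp2 knockdown, 0.55 in the double knockdown and 0.52 in the Ptbp1 knockdown. Over 31 genes with frame-keeping exons of the same group the medians were −0.10 in the Ptbp2 knockdown, −0.02 in the double knockdown and 0.05 in the Ptbp1 knockdown. Gabbr1 had 31.7 reads per M in the Ptbp2 knockdown, 75.7 in the double knockdown, 112 in the Ptbp1 knockdown and 41.8 in control. Scamp5 had 14.3, 31.4, 38.4 and 20.1, and Dlg4 had 93.3, 129, 129 and 93.5 in the same libraries. The Ptbp2 knockdown had the lowest level in Gabbr1 and Scamp5, while in Dlg4 the Ptbp2 knockdown was level with control.

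By gene group, 357 of the 9862 genes with a measured exon (3.62%) held a member. Among regulators of small GTPases 10 of 46 did (Agap3, Arhgap12, Arhgap17, Arhgef10, Arhgef11, Arhgef12, Iqsec2, Madd, Ralgps2 and Sipa1l1). The counts were 5 of 30 for membrane skeleton and adhesion, 4 of 45 for actin, 5 of 39 for microtubules, 5 of 36 for synapse, receptors and channels, and 5 of 51 for membrane traffic. They were 8 of 66 for splicing and RNA-binding proteins, 7 of 54 for transcription and chromatin and 4 of 49 for kinases, phosphatases and partners. Of the genes listed for exons known to respond to PTB proteins, 11 of 53 held a member: Camk2a, Clta, Dlg4, Epb41l2, Epb41l3, Exoc7, Gabbr1, Mapt, Ptbp2, Tnrc6a and Tpm1. Of those listed for exons known to respond to MBNL proteins, another family of splicing regulators, 10 of 43 did, among them Itga6, Golga2, Arhgef12, Cttn and Clasp1. Lists and all genes were not matched on exon number or depth, and the lists were chosen with results known, so nothing is read from these shares about the groups.

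Some list members show how the smaller drops looked. Ehmt2, a histone H3 lysine 9 methyltransferase, had a 102-nucleotide exon at 31.5% in the Ptbp2 knockdown, 52.5% in the double knockdown, 55.9% in the Ptbp1 knockdown and 51.2% in control, from 594.5 or more reads. Tpm1, an actin-binding tropomyosin, had a 76-nucleotide exon at 85.8% in the Ptbp2 knockdown, 99.8% in the double knockdown, 99.1% in the Ptbp1 knockdown and 98.2% in control. Both had intervals apart between the Ptbp2 knockdown and control, and in both only the Ptbp2 knockdown was low. Camk2a, a kinase of synaptic plasticity, was at 12.3% in the Ptbp2 knockdown, 46.8% in the double knockdown, 54.5% in the Ptbp1 knockdown and 23.1% in control, from 26.0 to 39.5 reads, none of them on 1 of its inclusion junctions, with intervals that overlapped between the Ptbp2 knockdown and control. Among the GTPase regulators 6 of 10 genes had a member with intervals apart, and Arhgap17, a GTPase-activating protein, had a partly coding 48-nucleotide exon that was at 10.3% in the Ptbp2 knockdown, 26.5% in the double knockdown, 31.2% in the Ptbp1 knockdown and 35.7% in control.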

How the data were processed

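RNA of 4 N2A libraries, 1 per group, was processed by the authors with CASAVA, TopHat and Cufflinks on mm9, per the submitters' processing notes. No versions were stated in the sources used here. The deposited SpliceTrap tables hold counts of reads across the 3 junctions of each exon trio, an inclusion ratio (a fraction) and exon coverage, a signal of reads per exon length, per the file headers. The deposited transcript tables give FPKM per assembled isoform, on a scale that is not the usual one, so FPKM was used only as shares within a library. The deposited transcript files also carry a Cufflinks score, of which only the exon coordinates and names beside it were used. Deposited gene-level FPKM tables were not used.

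Inclusion was computed from junction counts of 218362 cassette rows, 1 row per exon, the one with most junction reads in control. The minimum of 20 reads applied to mean inclusion plus skipping reads. Exons were named from RefSeq exons in the deposited assemblies, or from GENCODE vM21 by chromosome, strand, both intron lengths and exon length, which named 97.3% of rows. The same match placed exons in GRCm38 for sequence, frame and coding status. Host gene levels are exon reads scaled by median of ratios, expressed as log2(CPM + 0.1), with CPM being exon reads per M. Gene symbols held by both sources were the same for 98.8% of rows. Python 3.11.15, NumPy 2.4.6 and pandas 2.3.3 were used. The rule was also run on simulated counts, where the lowered exons had larger drops and more reads than most members. That run does not cover the drops and depths of most members.

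Members and gene lists were chosen with earlier results of these data known. Named exons are, among members with at least 50 reads in every library, the 12 largest drops in the Ptbp2 knockdown and the 12 largest excesses of the double knockdown over control. Exons nearest the limits, members on a gene list, members that share a gene with these and the Ptbp2 exon could also be named. Alternatives were other read minimums, thresholds, single junctions, the SpliceTrap ratio, row choice, exon sizes, scaling and pseudocount.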

Additional observations from a re-analysis of the deposited data

Results flagged for a closer look

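With the Ptbp2 shRNA, 43 members were lower where Ptbp1 was not targeted (Ptbp2 knockdown minus control) and at least 10 points higher where it was (double minus Ptbp1 knockdown), so the direction was opposite in the single libraries of both settings. The difference between the settings was not tested. Of all measured exons, to which the members were not matched, 0.425% were at least 10 points higher in the double than in the Ptbp1 knockdown. The rule chose members for a low Ptbp2 knockdown and set a lower limit on the double knockdown, and 25 of the 43 have under 50 reads in some library. The named ones with at least 50 reads in every library are given as the double minus the Ptbp1 knockdown. It was 24.9 points in Clip2, 20.8 in Mcfd2, 15.1 in Dlg4, 14.1 in Ccdc97, 13.3 in Ankrd12, 12.6 in the 63-nucleotide Madd exon, 11.7 in Pi4kb, 10.8 in Dclre1b, 10.3 in Dhx30 and 10.2 in Ptgr2. Qrich1 had 16.6 points for its 60-nucleotide exon and 14.4 for its 124-nucleotide exon. Enah had 11.2 for the 111-nucleotide and 10.6 for the 843-nucleotide form, which share a junction. Celf4 had 10.9 for an 84-nucleotide and 10.5 for a 144-nucleotide exon. Of these, the drop in the Ptbp2 knockdown had intervals apart from control in Dlg4, Dclre1b, Dhx30 and both Enah forms, while in the others the intervals of the Ptbp2 knockdown and control overlapped. Between the double and the Ptbp1 knockdown, the intervals were apart in Clip2, Dlg4 and the 63-nucleotide Madd exon. They overlapped in Ankrd12, and are not given here for the remaining exons.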

How the results depend on the processing

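Each group held 1 library, so no result could be held against replicate spread. No paired analysis was possible because each group holds 1 library. The number of members was 257 with at least 50 reads in each library and 56 with a drop of at least 20 points. Kept to members whose intervals in the Ptbp2 knockdown and control were apart, a choice made after seeing the data, it was 187. The number above control in the double knockdown was 22 with a drop of 20 points and 32 with intervals apart. The number above control in the Ptbp1 knockdown was 21 and 36 under the same settings. The median Ptbp1 knockdown minus control was 0.23 points with at least 50 reads, 5.82 with a drop of 20 points and 0.60 with intervals apart. The share of exons whose length is a multiple of 3 was 55.4% with a drop of 20 points. The read minimum counted on the sum of the 3 junctions, also chosen after seeing the data, gave 495 members. Single junctions or the SpliceTrap ratio gave 431 to 462, of which 269 to 277 were among the 404, so the identity of about 1 member in 3 depends on the readout. The median host gene difference was −0.04 to −0.06 under 3 alternatives. The pyrimidine content upstream of the exons was not run, since intron sequence was not used here. Exons with 20 to 50 reads have wide intervals, and a drop of 10 points there is not detectable with certainty at this depth.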
